A study of Zea mays with 6 samples.

Results

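Lipoxygenases and 12-oxo-phytodienoate reductases (OPRs) supply oxylipins, the oxygenated fatty acids that include jasmonate. The 10 genes described here are 8 maize lipoxygenase genes (lox1, lox3, lox4, lox5, lox6, lox8, lox9 and lox10) and 2 OPR genes (opr7 and opr8). They were listed by identifier, for the enzymes they encode, out of 46430 genes in the files. The RNA was taken from the third leaf of each maize (Zea mays) seedling on day 7 of drought. The seedlings were of B73, the reference inbred of maize (labelled wild type), or of W9706, and each line gave 3 libraries. Seedlings of both lines were grown in soil in plastic beakers in a growth chamber, per the labels' protocols. All 6 libraries came from droughted plants and no watered plants were analysed here, so a difference between the lines that exists without drought and one that arises under drought cannot be told apart. Nothing in the labels ties a replicate to its own plant, beaker or day. The p-values therefore reflect how far these libraries spread, and that spread may be technical.

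A lipoxygenase adds oxygen to a polyunsaturated fatty acid, and the family is divided by the carbon that receives it. The 13-lipoxygenases (13-LOX) act mainly in the plastid and start both the route to jasmonate and the route to green leaf volatiles, the short aldehydes and alcohols that give cut leaves their smell. The 9-lipoxygenases (9-LOX) feed other oxylipins that are best known from defence against fungi, nematodes and insects. Jasmonate itself is made when the product of the 13-LOX route is cyclised in the plastid and then reduced in the peroxisome by an OPR, and it governs wound and insect defence and, in maize, the sex of tassel flowers.

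The identifiers behind these names were Zm00001d042541 (lox1), Zm00001d033623 (lox3), Zm00001d033624 (lox4), Zm00001d013493 (lox5), Zm00001d002000 (lox6), Zm00001d003533 (lox8), Zm00001d027893 (lox9), Zm00001d053675 (lox10), Zm00001d032049 (opr7) and Zm00001d050107 (opr8). Neither the files nor the RefSeq gene table (assembly Zm-B73-REFERENCE-NAM-5.0) pairs these identifiers with the names, which came with the list of members. The table lists all 10 names, with lox8 as a synonym of ts1. It places lox3 and lox4 next to each other on chromosome 1 with 0 genes between them, and lox1 likewise next to lox2, which was not analysed here.

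Each library had between 21084151 and 32088105 counts in genes, with 12.7% to 13.8% of its reads listed as unmapped. Whether reads that match several places are among the unmapped ones was not tested. Levels are given as CPM, a gene's count relative to a library size scaled by TMM, a method that aligns the bulk of genes between libraries. Values of single libraries follow the order of replicates 1, 2 and 3. The files list multimapping reads as 0 in every library, so counts of close paralogs, lox3 with lox4, lox1 with lox2 and opr7 with opr8 among them, are uncertain, the more so for W9706 alleles counted on gene models of B73. The strand of the RNA was not kept, with 49.0% to 51.5% of each gene's stranded counts in the first strand column, so reads of an antisense partner would not be told apart. Levels were not compared between genes, since transcript lengths for these gene models were not used here. Shares of counts are given instead, with no correction for length. Each marker of a green leaf (7 symbols) and 31 symbols of other lipoxygenases, other OPRs, hydroperoxide lyase, jasmonate synthesis and jasmonate response were looked up in the gene table. It held 5 of the leaf markers and 17 of the pathway symbols but paired 0 of either with an identifier of the files, so the tissue label was not checked and those genes were not analysed here.

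The lines differed in most of these genes, and the 9-LOX, the 13-LOX and the OPR genes each held both a higher and a lower gene. All 10 genes had enough counts to be tested. Relative to B73, W9706 had 3 of them higher and 4 lower, while 3 did not pass (edgeR's quasi-likelihood test, threshold of 0.05 on Benjamini-Hochberg adjusted p over 22135 genes). Over all genes tested 34.2% passed, 15.2% higher and 19.0% lower. The balance over all genes depended on scaling, from 3367 higher and 4197 lower with TMM to 8165 and 2622 with library size alone, while the 10 genes gave 3 higher and 4 lower with both. lox3, lox9 and opr8 were higher in W9706, and lox4, lox8, lox10 and opr7 were lower. In leaf RNA taken whole, fewer cells of a type and less RNA per cell cannot be told apart. The median log2 fold change (W9706 over B73) was -0.68 for the 10 genes and 0.01 for all genes tested, and the median size of the change was 0.83 and 0.36. Changes past the threshold and over 2-fold were found for 3 of the 10 genes, lox3, lox4 and lox8, against 13.9% of all genes.

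**Figure D1:**
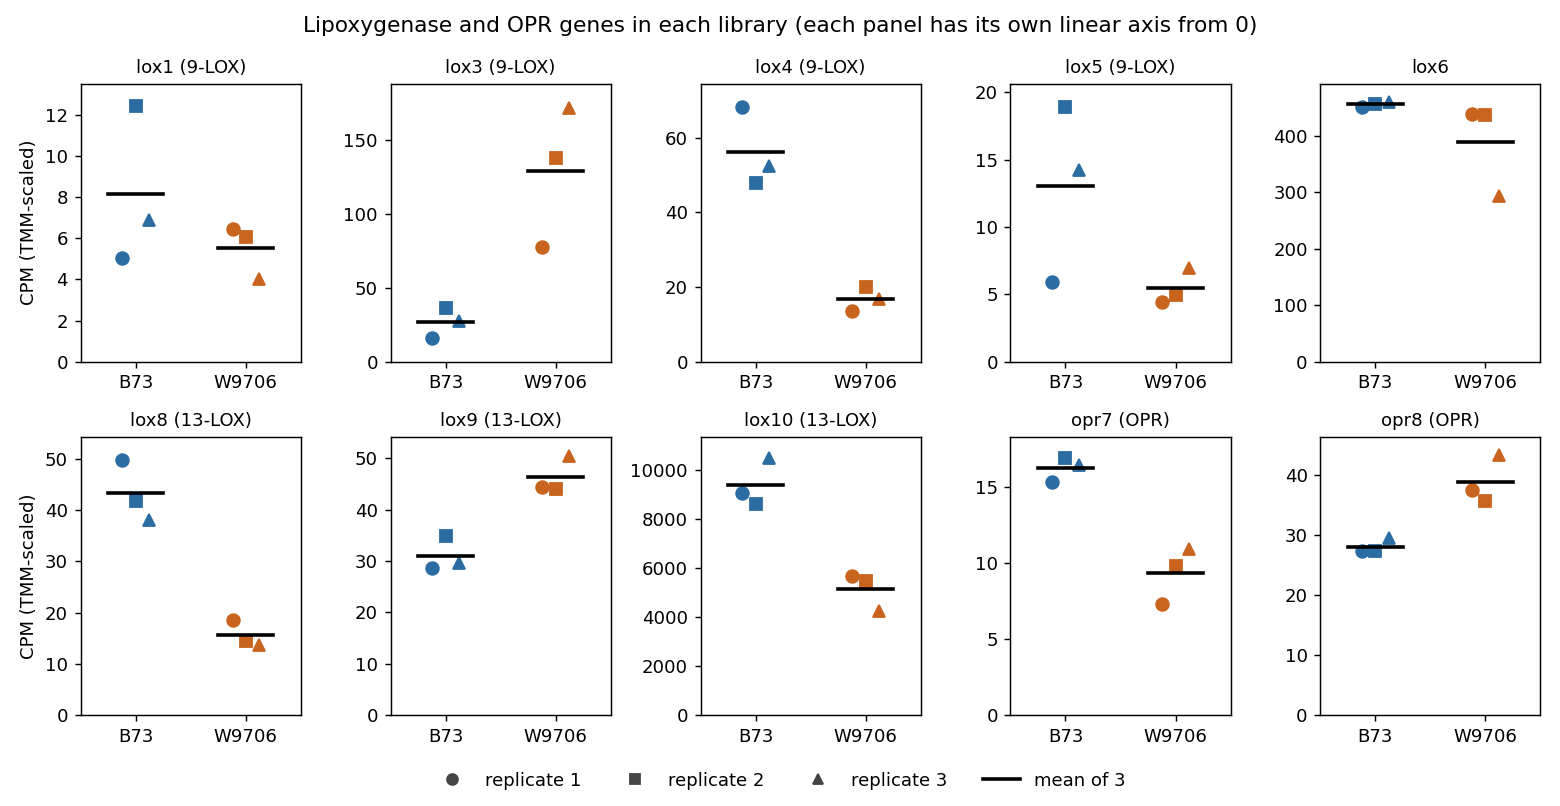
TMM-scaled CPM of each gene in each library, 1 panel per gene with its own linear axis from 0. Points are the 3 libraries of B73 (blue) and W9706 (orange), with a symbol per replicate and a bar at the mean. The lines do not overlap in 8 of the 10 panels, the exceptions being lox1 and lox5; over all genes tested they do not overlap in 50.6%.

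Among the 13-LOX genes, lox10 is known in maize as the source of green leaf volatiles, and it also contributes to jasmonate after wounding. It ranked between 4 and 8 by raw count among all genes of each library, with no correction for length. Its share of all assigned counts was 0.817%, 0.793% and 0.934% in B73 and 0.630%, 0.601% and 0.466% in W9706. Every W9706 library lay below every B73 library. In TMM-scaled units lox10 stood at 9033, 8608 and 10467 CPM in B73 and at 5678, 5476 and 4241 CPM in W9706. B73 averaged 9369 ± 974 CPM and W9706 5132 ± 778 CPM (SD, n = 3 each). This gave a log2 fold change of -0.87 ± 0.20 (SE; edgeR, adjusted p = 0.0112). W9706 replicate 3 was the lowest of the 6 libraries, and replicates 1 and 2 of W9706 were close to each other. The summed counts of the 3 13-LOX genes were those of lox10 to a large extent, since it held 98.5% to 99.4% of them in each library.

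lox8, known as tasselseed1, encodes a plastid 13-LOX of jasmonate synthesis that is required for male flowers in the tassel. It had 49.8, 41.8 and 38.2 CPM in B73 and 18.6, 14.5 and 13.8 CPM in W9706. The lowest B73 library was above the highest W9706 library by a wide gap. The log2 fold change was -1.47 ± 0.15 (SE), 2.77-fold higher in B73 (edgeR, adjusted p = 0.000435). lox9, classed as a 13-LOX, went the other way. It had 28.6, 34.9 and 29.6 CPM in B73 and 44.4, 44.0 and 50.4 CPM in W9706. The libraries of W9706 were all higher, and the spread within each line was small. It differed by a log2 fold change of 0.58 ± 0.11 (SE), 1.49-fold higher in W9706 (edgeR, adjusted p = 0.00479).

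With lox8 called lower and lox9 called higher in W9706, their balance differed between the lines, which follows from those calls. lox9 held 36.5%, 45.5% and 43.7% of the counts of these 2 genes in B73 and 70.4%, 75.2% and 78.5% in W9706. It held the smaller part of the pair's counts in every B73 library and the larger part in every W9706 library. Together they reached 74.3 ± 5.71 CPM in B73 against 61.9 ± 3.00 CPM for W9706 (SD, n = 3 each), a ratio of 1.20 in favour of B73. By library totals without TMM scaling the lines overlapped in this sum, at 0.00605% to 0.00709% of counts in B73 and 0.00642% to 0.00706% in W9706.

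The 9-LOX genes lox3 and lox4, which lie side by side and encode closely related enzymes, showed the widest changes of the 10 genes, in opposite directions. lox3 is known in maize for its effect on infection, since mutants are more resistant to some fungi and more susceptible to others and to nematodes. It had 16.2, 36.2 and 27.6 CPM in B73 and 77.7, 138 and 171 CPM in W9706. The lines did not overlap, but both varied widely, by 1.16 on the log2 scale from the lowest to the highest library in B73 and by 1.14 in W9706. On the log2 scale the change was 2.27 ± 0.38 (SE), 4.84-fold higher in W9706 (edgeR, adjusted p = 0.00504). Of all genes tested 3.42% had a larger change in either direction.

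lox4 had 68.2, 47.8 and 52.5 CPM in B73 and 13.6, 20.1 and 16.8 CPM in W9706. Its lines were far apart, and the lowest B73 library exceeded the highest W9706 library. The change came to -1.74 ± 0.18 on the log2 scale (SE), 3.34-fold higher in B73 (edgeR, adjusted p = 0.000618). Of all genes tested 6.13% had a larger change.

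Counts of the pair therefore came mostly from lox4 in B73 and mostly from lox3 in W9706. lox3 held 19.2%, 43.1% and 34.5% of the counts of lox3 and lox4 in B73, with 95% exact (Clopper-Pearson) binomial intervals of 17.5% to 21.0%, 40.9% to 45.4% and 32.1% to 36.9% (counting error only). In W9706 it held 85.1%, 87.2% and 91.1%. The share differed between the 3 B73 libraries beyond counting error, with replicate 1 lowest. The sum of the pair was nearly constant in B73, at 84.4, 84.0 and 80.1 CPM, although its parts were not: the B73 library with the lowest lox3 had the highest lox4, and the one with the highest lox3 had the lowest lox4. In W9706 the sum was 91.3, 158 and 188 CPM, above every B73 library and with most of its spread from lox3. The ratio of the mean sums was 1.76 in favour of W9706. Reads of one gene counted for the other would change these shares, and the part of such reads was not tested.

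lox5 and lox1, the other 9-LOX genes, did not pass the edgeR test. lox5 is known in maize for a role in defence against insects. It had 5.94, 18.9 and 14.2 CPM in B73 and 4.42, 4.95 and 6.94 CPM in W9706. B73 replicate 1 lay within the range of W9706 and the other B73 libraries well above it. The log2 fold change was -1.25 ± 0.41 (SE, 95% interval -2.23 to -0.27; edgeR, adjusted p = 0.0554). The interval leaves out 0 because it is for this gene alone (edgeR, unadjusted p = 0.0196), while the adjusted p accounts for all genes tested. The edgeR fit with the replicate number as a block gave an adjusted p of 0.0270, and leaving out B73 replicate 1 gave -1.60 with an adjusted p of 0.00426. In the other direction, leaving out B73 replicate 2 gave -0.86 (edgeR, adjusted p = 0.152), and leaving out W9706 replicate 1 as well gave -0.73 (edgeR, adjusted p = 0.298).

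lox1 encodes an enzyme that in maize adds oxygen at either position and is listed here with the 9-LOX genes. It had 5.03, 12.5 and 6.91 CPM in B73 and 6.44, 6.08 and 4.02 CPM in W9706. The lines overlapped, and B73 replicate 2 stood above all other libraries. It differed by a log2 fold change of -0.56 ± 0.35 (SE, 95% interval -1.38 to 0.25; edgeR, adjusted p = 0.252). Leaving out B73 replicate 2 gave -0.10. Since the interval reaches from a more than 2-fold fall to a small rise, these libraries do not show that the lines have the same level of lox1.

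The summed level of the 4 9-LOX genes was 95.4, 115 and 101 CPM in B73 and 102, 169 and 199 CPM in W9706. The lines overlapped in this sum, through W9706 replicate 1. By library totals without TMM scaling they did not, at 0.00863% to 0.0106% of counts in B73 and 0.0113% to 0.0219% in W9706. lox3 held 17.0% to 31.4% of these counts in B73 and 76.1% to 86.0% in W9706. The 4 9-LOX genes together held 0.912% to 1.25% of the counts of the 8 lipoxygenases in B73 and 1.63% to 4.15% in W9706, where lox10 was lower and lox3 higher.

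**Figure D2:**
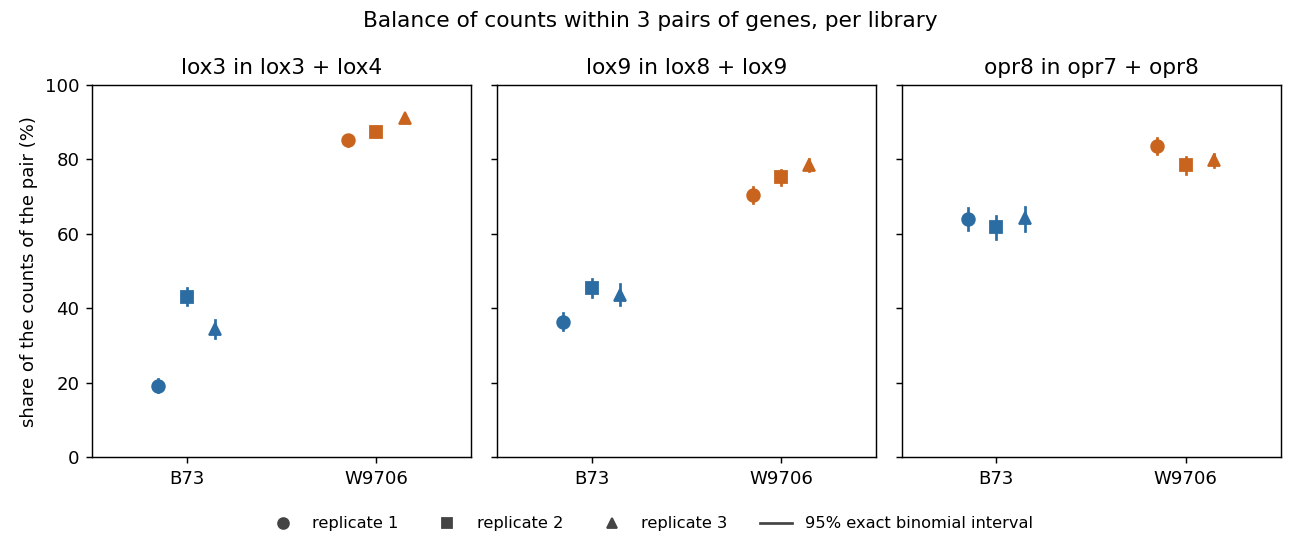
Share of the counts of a pair of genes held by 1 of them in each library: lox3 in lox3 and lox4, lox9 in lox8 and lox9, and opr8 in opr7 and opr8. Vertical lines are 95% exact binomial intervals, which cover counting error only. The pairs join a gene called higher with one called lower, which by itself sets the lines apart in these shares. The B73 libraries are most spread for lox3, at 19.2% to 43.1%.

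lox6 belongs to neither class in its activity, since the maize enzyme is known to cleave fatty acid hydroperoxides and not to make them. It had 451, 455 and 460 CPM in B73 and 439, 437 and 293 CPM in W9706. The B73 libraries were nearly identical, replicates 1 and 2 of W9706 lay just under them, and W9706 replicate 3 was far lower. On the log2 scale the change was -0.23 ± 0.17 (SE, 95% interval -0.62 to 0.16; edgeR, adjusted p = 0.334). The ranges did not overlap, which held for 50.6% of all genes tested and for 8 of these 10. By library totals without TMM scaling the lines overlapped, at 0.0408% to 0.0419% of counts in B73 and 0.0322% to 0.0487% in W9706, and the log2 fold change was 0.057. Without W9706 replicate 3 the change was -0.057. That library was also the lowest of its line for lox1, lox8 and lox10.

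opr7 and opr8 encode closely related peroxisomal reductases, and maize mutants that lack both are deficient in jasmonate and bear feminised tassels. Their levels moved in opposite directions. opr7 had 15.3, 16.9 and 16.5 CPM in B73 and 7.30, 9.83 and 11.0 CPM in W9706. All W9706 libraries were below all B73 libraries. The change came to -0.79 ± 0.16 on the log2 scale (SE), 1.73-fold higher in B73 (edgeR, adjusted p = 0.00686).

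opr8 had 27.4, 27.4 and 29.5 CPM in B73 and 37.5, 35.8 and 43.4 CPM in W9706. Here the W9706 libraries were the higher ones, again without overlap. The log2 fold change was 0.47 ± 0.10 (SE), 1.38-fold higher in W9706 (edgeR, adjusted p = 0.00832). With 2 libraries left out together, B73 replicate 2 and W9706 replicate 1, it was 0.49 with an adjusted p of 0.0502.

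Summed over the pair, B73 had 44.4 ± 1.62 CPM and W9706 48.3 ± 5.27 CPM (SD, n = 3 each), with overlapping ranges. By library totals the ranges did not overlap, at 0.00386% to 0.00410% of counts in B73 and 0.00497% to 0.00597% in W9706, a ratio of 1.32 in favour of W9706 against 1.09 with TMM. Since opr7 was called lower and opr8 higher, a shift in their shares follows from the calls. opr8 held 61.8% to 64.2% of the counts of the pair in B73 and 78.5% to 83.7% in W9706. The exact binomial intervals of the 3 B73 libraries overlapped, and in W9706 replicate 1 lay above replicate 2 beyond counting error. As with lox3 and lox4, the part of reads counted for the wrong gene of the pair was not tested.

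**Figure D3:**
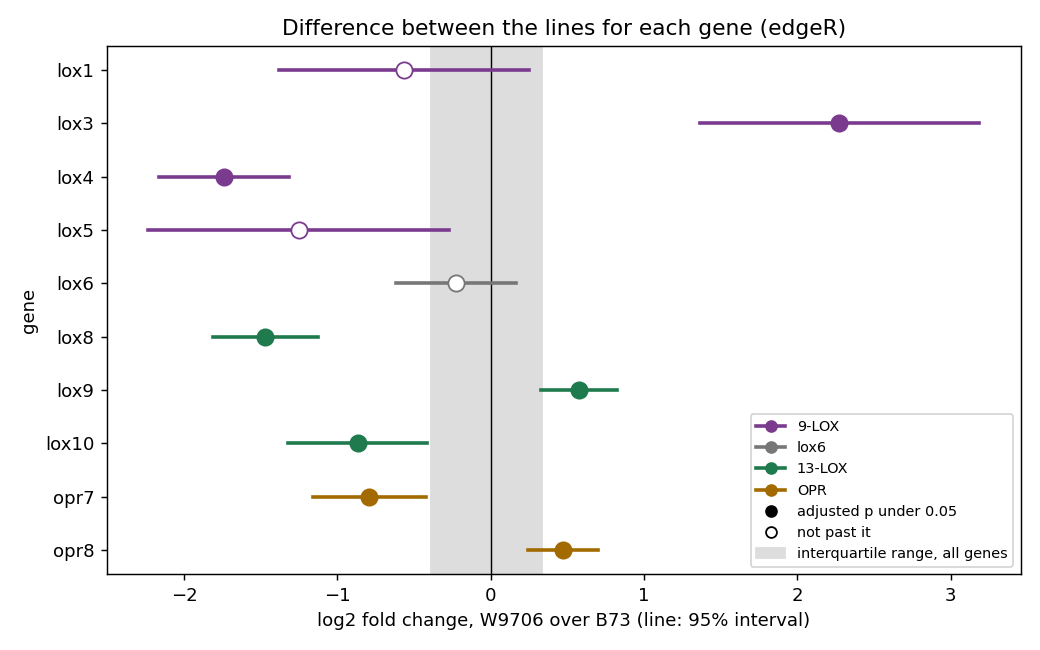
Log2 fold change of each gene, W9706 over B73, with its 95% interval (not adjusted for the number of genes tested), coloured by class. Filled points passed the edgeR test at an adjusted p under 0.05 and open points did not; the grey band is the interquartile range of all genes tested, -0.39 to 0.34. Genes of every class with more than 1 member lie on both sides of 0, from -1.74 for lox4 to 2.27 for lox3.

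The libraries of a line did not differ from each other in the same way for all genes. In B73, replicate 1 was the lowest of the line for 7 of the 10 genes and the highest for 2, lox4 and lox8, while replicate 2 was the highest for 5. In W9706, replicate 3 was the highest for 5 genes and the lowest for 4. The spread within a line was widest for lox5 in B73, at 1.67 on the log2 scale from the lowest to the highest library, and narrowest for lox6 in B73, at 0.03. The 7 calls kept their direction and passed the threshold when any single library was left out, with log2 fold changes of 2.02 to 2.58 for lox3, -1.88 to -1.57 for lox4, -1.61 to -1.35 for lox8 and -0.95 to -0.75 for lox10. The highest adjusted p among these was 0.0483, for lox10. Over all genes, the number higher in W9706 fell from 3367 to 2070 without W9706 replicate 2, and the 3 higher genes described here were still called. A stricter edgeR test of whether a change exceeds 2-fold was passed by lox4 and lox8, and lox3 had an adjusted p of 0.0627 in it.

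**Figure D4:**
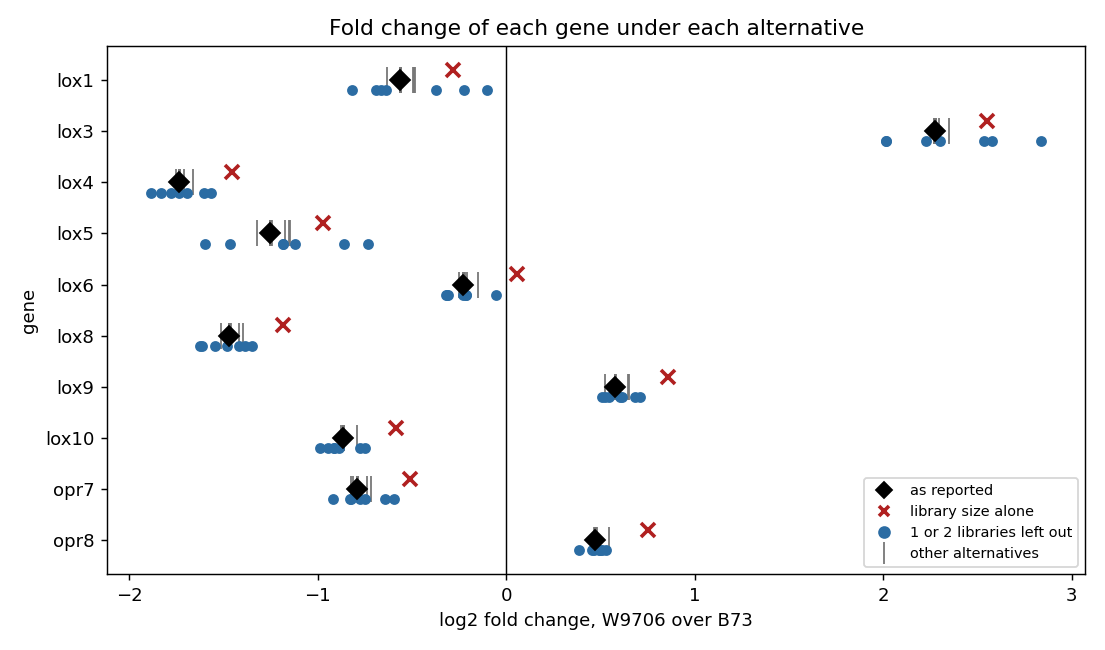
Log2 fold change of each gene (W9706 over B73) as reported (diamond), with library size alone in place of TMM scaling (cross), with 1 or 2 libraries left out (circles) and under the other alternatives (vertical ticks). All values of a gene lie on 1 side of 0 except those of lox6, which was -0.23 as reported and 0.057 with library size alone.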

How the data were processed

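RNA of the third leaf of B73 and W9706 seedlings (3 libraries each) was sequenced from libraries of NEB's Ultra RNA kit, per the labels' protocols. The deposited files hold whole-number read counts per gene as STAR writes them. The aligner STAR is listed per the submitters' processing notes, and for its version, the genome build or the annotation there was no statement (not given in the sources used here). The column counted without regard to strand was used, and the 4 summary lines were left out. The comparison used edgeR 4.0.16 under R 4.3.3 (filterByExpr by line, 22135 genes kept, TMM, robust quasi-likelihood F test, Benjamini-Hochberg adjusted p under 0.05), with all 6 libraries. The standard error is the log2 fold change divided by the square root of F, and 95% intervals use the t distribution with the fit's degrees of freedom. These intervals are for each gene alone and are not adjusted for the number of genes tested. A gene with 0 counts could still stand at up to 0.0935 to 0.142 CPM (3 counts of the library total, counting error only); all 10 genes had at least 121 counts per library. No 2 libraries were duplicates (chi-square per degree of freedom of at least 10.7 in 15 pairs). The test was also run on simulated data, and the outcome is not given here. Deviations of same-numbered libraries from their line means correlated at 0.218, 0.111 and 0.131 for numbers 1 to 3, and those of unlike-numbered libraries at -0.228 to 0.107. The labels do not say what a number shares, so calls are from the fit without the replicate block, and the block's value is printed where it changes a call. Alternatives were other scalings, filters and count columns, DESeq2 1.42.0, the replicate block, a test against a 2-fold change and leaving out libraries. All 10 members were named. The members, gene lists and alternatives were chosen with earlier results of these data known. Protein and promoter sequences were not used here.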

Additional observations from a re-analysis of the deposited data

How the results depend on the processing

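Of 18 alternatives for each of the 10 genes, the direction turned once, for lox6 with library size alone (0.057). That scaling moved the median log2 fold change of all genes from 0.01 to 0.29, and the 10 genes moved with it while the 7 calls held; over all genes it gave 8165 higher and 2622 lower, against 3367 and 4197. The test against a 2-fold change, stricter by construction, called 844 genes (276 higher, 568 lower) and 2 of the 10 (0 higher, 2 lower). Leaving out a replicate gave 5133 to 6751 genes (2070 to 2977 higher, 3063 to 3969 lower), and 7 to 8 of the 10 (3 higher, 4 to 5 lower). With 2 libraries left out, B73 replicate 2 and W9706 replicate 1, 2240 genes were higher, and 6 of the 10 were called, opr8 being lost. lox5 passed with DESeq2 (adjusted p of 0.00458), a filter of 1 CPM in 3 libraries (0.0496), the replicate block (0.0270) and without B73 replicate 1 (0.00426), and had an adjusted p of 0.960 in the test against a 2-fold change. The replicate block called 8047 genes, 7211 of them shared with the 7564, and changed no other call among the 10. lox1 and lox5 rest on 121 to 421 counts per library, and opr7, which was called, on 203 to 387. Chosen after seeing the data, library totals without TMM gave ratios of summed levels (W9706 over B73) of 1.83 for the 4 9-LOX genes, 0.670 for the 3 13-LOX genes, 1.01 for lox8 with lox9, 1.32 for the OPR genes and 2.14 for lox3 with lox4, against 1.51, 0.550, 0.833, 1.09 and 1.76 with TMM, so the direction for lox8 with lox9 rests on the scaling.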
